A study of Mus musculus with 9 samples.

Results

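The 8 genes described here encode CD1d, the molecule that presents lipids to natural killer T (NKT) cells, and proteins that build glycosphingolipids or take them apart in lysosomes: Cd1d1, Psap, Gm2a, Gla, Hexa, Glb1, Galc and Ugcg. They were chosen by name, with earlier results of these data known. Each of the 8 symbols matched 1 identifier among the 29288 genes of the count table. All 8 were among the 18933 genes that passed the filter on low counts. Intestinal epithelial cells (IECs) had been sorted as EpCAM+CD45-CD31-Ter119- cells from proximal small-intestinal crypts of female wild-type C57BL/6J mice and sequenced in bulk, with 1 library per mouse. The control group held 3 mice given PBS and sampled at 18 h, the 18h-αGal group held 3 mice sampled 18 h after an intraperitoneal injection of 2 µg α-galactosylceramide (αGalCer), and the 72h-αGal group held 3 other mice sampled 72 h after the same dose. The labels gave no other agent or allele for any group and did not give the ages of the mice. No control mice sampled at 72 h were among the 9 libraries, so at 72 h αGalCer and the time of sampling cannot be told apart. Both contrasts against PBS shared the same 3 control mice.

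αGalCer is a glycolipid in which a galactose is joined to ceramide by an α-linkage, and it activates NKT cells when it is bound to CD1d. CD1d is a class I-like heavy chain that pairs with β2-microglobulin, folds in the endoplasmic reticulum, reaches the cell surface and is then recycled through endosomes and lysosomes, where its lipid cargo is exchanged. In the lysosome, small activator proteins lift glycolipids out of membranes so that glycosidases can trim their sugars 1 at a time, and loss of a single enzyme or activator causes a storage disease. Epithelial cells of the gut carry CD1d, and their apical membranes are rich in glycosphingolipids, whose synthesis starts with the transfer of glucose to ceramide by the product of Ugcg.

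Upstream sequence of 3 of the 8 genes is shown, that of Galc because it was the gene that passed the test after αGalCer, and those of Gla and Glb1 because they hold a motif of lysosomal genes that was searched for. The windows were those of RefSeq on build GRCm38.p6, each running from 250 bases before to 50 bases after an annotated start, and 7 of the 8 genes had a window (not Cd1d1). Sequences are printed 5′ to 3′ on the strand of the gene, positions are counted from the annotated start, and capitals mark a motif.
Galc, chr12:98259460-98259609, minus strand, no motif of those searched: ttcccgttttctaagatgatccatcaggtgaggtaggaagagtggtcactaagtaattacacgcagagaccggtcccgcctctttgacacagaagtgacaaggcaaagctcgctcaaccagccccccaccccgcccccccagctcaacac
Gla, chrX:134601166-134601255, minus strand, capitals TCACGTGA: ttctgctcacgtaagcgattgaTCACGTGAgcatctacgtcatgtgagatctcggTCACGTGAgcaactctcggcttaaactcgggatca
Glb1, chr9:114400988-114401077, plus strand, capitals CACGTG: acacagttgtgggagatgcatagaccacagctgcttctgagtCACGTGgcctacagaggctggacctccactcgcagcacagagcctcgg

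The letters CACGTG are the core of the motif bound by TFEB, a transcription factor of lysosomal genes, and they occurred in 2 of the 7 genes with a window, Gla and Glb1, and in 7.15% of all 32851 windows. Both strands were read. The longer form TCACGTGA contains that core, was held by 0.974% of windows, and stood at -228 to -221 and at -195 to -188 upstream of Gla. The core motif of interferon regulatory factors (IRF1/ISRE) was held by 3.44% of windows and by none of the 7 genes. The 300-base window of Galc held none of these 3 motifs. A match describes the letters alone, and no binding was measured.

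Among the 8 genes, Galc was the only one that differed between groups at an adjusted p under 0.05, and it was lower at 18 h after αGalCer. This was 1 of 8 genes, where 5.96% of all genes tested were called in that contrast, 3.27% higher and 2.69% lower. At an unadjusted p under 0.05 it was again 1 of 8, beside 20.8% of all genes. None of the 8 was called between 72h-αGal and control mice, where 0.0264% of all genes were called, or between the 72 h and 18 h groups, where 10.2% were called, 4.18% higher and 6.04% lower. At an unadjusted p under 0.05 these counts were 0 of 8 (beside 5.94% of all genes) and 1 of 8 (beside 24.3%), and by DESeq2 0 of 8 and 1 of 8 were called. The other 7 genes had 18 h fold changes whose 95% intervals all included no difference, with the narrowest for Psap and the widest for Cd1d1. The median log2 fold change of the 8 genes at 18 h was -0.092, beside -0.030 over all genes tested. It was -0.054 at 72 h against control, beside 0.0022 over all genes, and 0.11 between 72 h and 18 h, beside 0.046 over all genes. Adjusted p-values here and below are from the quasi-likelihood test of edgeR with Benjamini-Hochberg adjustment over all 18933 genes, and log2 fold changes are given ± SE.

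**Figure D1:**
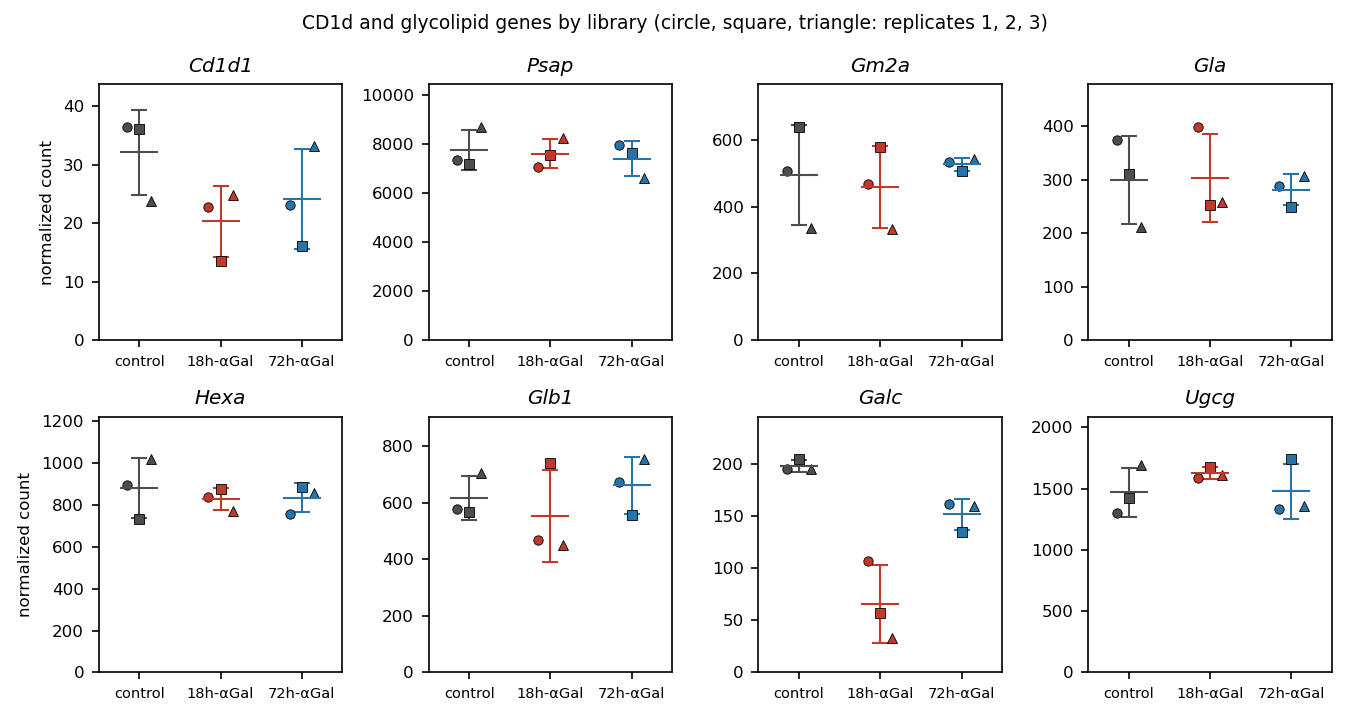
Normalized count (vertical axes, each starting at 0) of each of the 8 genes in the 9 libraries, with group means and SD (n = 3 mice per group) as lines. Galc lies between 33.1 and 107 in the 18h-αGal libraries and between 194 and 204 in the control libraries, while the groups overlap for each of the other 7 genes at 18 h.

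Total counts ran from 8887861 to 32722293 per library. Control replicate 3, the smallest library, stood apart from the other 8 on the second principal component of the most variable genes. At 18 h, 6 of 7 reference genes of the interferon-γ response were called higher (beside 3.27% of all genes), among them Gbp2 (4.55 ± 0.47, adjusted p = 0.00031). At 72 h, none of these 7 was called by edgeR or DESeq2 or had an unadjusted p under 0.05. Summed markers of epithelial cells were 4497 to 5639 CPM (reads scaled to a fixed library total) in the 9 libraries, those of T and NK cells 2.03 to 14.8 CPM, those of B and plasma cells 1.02 to 4.77 CPM, those of myeloid cells 26.8 to 59.9 CPM, and those of endothelial and erythroid cells 0.649 to 2.7 CPM. Most of the highest T and NK sum came from Zbtb16, a transcription factor gene of NKT cells, with 14.5 CPM in 72h-αGal replicate 3. In that library Ptprc had a normalized count of 4.42, the lowest of the 9, with Cd3e at 1.47 and Trac at 0. The source of the Zbtb16 reads was not tested. Of the other immune genes, Cd3e reached at most 1.29 CPM and Ptprc at most 3.07 CPM, while most of the myeloid sum came from Cd68 (12.4 to 42.1 CPM). The sorted cells were mixtures of crypt cell types, and in such bulk samples fewer cells of a type and less RNA per cell cannot be told apart.

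CD1d itself was near the lower end of what these libraries could measure. Cd1d1 (ENSMUSG00000028076, chr3:86903132-86906770 on GRCm39, minus strand) encodes the mouse CD1d heavy chain and had 10 to 62 reads per library. In normalized counts it stood at 36.4, 36.1 and 23.8 in control replicates 1 to 3, 22.7, 13.5 and 24.8 in 18h-αGal replicates 1 to 3, and 23.2, 16.1 and 33.1 in 72h-αGal replicates 1 to 3. Control replicates 1 and 2 were the highest of the 9 libraries and 18h-αGal replicate 2 was the lowest, and the groups overlapped in all 3 comparisons. The difference at 18 h was -0.67 ± 0.64 (adjusted p = 0.616), which as a fold change is 0.63 with a 95% interval of 0.245 to 1.62. At 72 h the difference from control was -0.40 ± 0.63 (adjusted p = 0.970), and between 72 h and 18 h it was 0.26 ± 0.64 (adjusted p = 0.856).

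Mice carry a second CD1d gene, Cd1d2, which in C57BL/6 is not known to yield a functional protein. Cd1d2 was listed at 0 in 7 libraries and had normalized counts of 3.78 and 14.4 in 18h-αGal replicates 1 and 2, too few to be tested. Of the 50-base words in Cd1d1 transcripts, 16.7% also occur in Cd1d2, so reads from such stretches could have been dropped or placed on either gene by the counting, and both values are uncertain to that extent.

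The ratio of B2m to Cd1d1 within a library was highest at 18 h. B2m encodes β2-microglobulin, the light chain of CD1d, which also serves classical MHC class I molecules. B2m had 316 to 1022 counts for each count of Cd1d1 in control libraries and 1539 to 2859 in 18h-αGal libraries. In 72h-αGal libraries it had 375 to 977. The 18 h ratios lay above those of all 6 other libraries. These ratios are given with no test, and their denominators are the 10 to 62 reads of Cd1d1. At 18 h B2m was called higher (1.2 on the log2 scale), whereas Cd1d1 was not called (-0.67, adjusted p = 0.616). A change of the ratio is thus not a measured change of Cd1d1.

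The activator proteins came next in the pathway. Psap (ENSMUSG00000004207, chr10:60113431-60138380 on GRCm39, plus strand) encodes prosaposin, the precursor of saposins A to D, of which saposin B and others load and unload CD1d lipids. Normalized counts of Psap were 7353, 7199 and 8687 in control mice, 7055, 7551 and 8224 in 18h-αGal mice and 7965, 7649 and 6605 in 72h-αGal mice. The spread over all 9 libraries was 1.31-fold, the smallest of the 8 genes, and the groups overlapped throughout. At 18 h the difference was -0.018 ± 0.11 (adjusted p = 0.956), with a 95% interval of 0.837 to 1.17 as a fold change. At 72 h it was -0.049 ± 0.11 (adjusted p = 0.982), and between 72 h and 18 h it was -0.032 ± 0.11 (adjusted p = 0.907). This interval was the narrowest of the 8 genes.

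Gm2a (ENSMUSG00000000594, chr11:54988883-55003855 on GRCm39, plus strand) encodes the GM2 activator, which presents ganglioside GM2 to β-hexosaminidase A and can also act as a lipid transfer protein for CD1d. Its normalized counts were 509, 639 and 338 in control mice, 468, 579 and 333 in 18h-αGal mice and 533, 506 and 545 in 72h-αGal mice. The lowest values were those of control replicate 3 and 18h-αGal replicate 3, whereas the 72h-αGal mice lay close together (528 ± 19.6, SD, n = 3). The 18 h difference was -0.11 ± 0.24 (adjusted p = 0.858, fold change 0.652 to 1.32), the 72 h difference was 0.096 ± 0.24 (adjusted p = 0.983), and that between the times was 0.20 ± 0.24 (adjusted p = 0.670).

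Gla (ENSMUSG00000031266, chrX:133488891-133501904 on GRCm39, minus strand) encodes α-galactosidase A, the enzyme lost in Fabry disease. It cleaves terminal α-linked galactose, the linkage that αGalCer also carries. In normalized counts, Gla was at 375, 309 and 212 in control mice, 398, 253 and 258 in 18h-αGal mice and 287, 249.1 and 306 in 72h-αGal mice. The highest and the lowest library, 18h-αGal replicate 1 and control replicate 3, belonged to the groups compared at 18 h, and all groups overlapped. The 18 h difference was 0.020 ± 0.26 (adjusted p = 0.978, fold change 0.692 to 1.49). Its sign turned with the scaling of the libraries. At 72 h the difference from control was -0.087 ± 0.26 (adjusted p = 0.989), and between the times it was -0.11 ± 0.26 (adjusted p = 0.856). Its exons overlap those of Hnrnph2 and Rpl36a on the opposite strand by 0.8% and 0.3% of its exon bases.

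Hexa (ENSMUSG00000025232, chr9:59446818-59474021 on GRCm39, plus strand) encodes the α subunit of β-hexosaminidase A, which is missing in Tay-Sachs disease and acts on GM2 together with the product of Gm2a. Control mice had 895, 733 and 1018 normalized counts of Hexa, 18h-αGal mice had 836, 878 and 773, and 72h-αGal mice had 758, 888 and 859. The 2 extremes, 733 and 1018, were both control libraries, so the αGalCer groups lay inside the control range. The 18 h difference was -0.077 ± 0.15 (adjusted p = 0.835, fold change 0.757 to 1.19). The 72 h difference from control was -0.059 ± 0.15 (adjusted p = 0.984), and that between the times was 0.018 ± 0.15 (adjusted p = 0.963). The gene overlaps Tmem202 on the opposite strand in 4.7% of its exon bases, and Tmem202 had at most 12 reads in a library.

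Within a library, Gm2a had 0.332 to 0.872 counts per count of Hexa in control mice, 0.43 to 0.659 in 18h-αGal mice and 0.57 to 0.703 in 72h-αGal mice. The ratio overlapped between all groups.

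**Figure D2:**
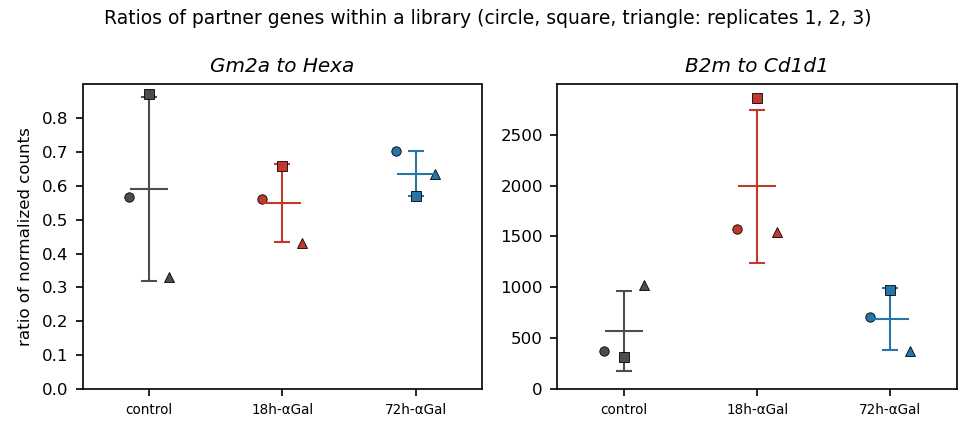
Ratio of normalized counts within each library (vertical axes, each starting at 0) for 2 pairs of partner genes, with group means and SD (n = 3 mice per group). The ratio of B2m to Cd1d1 is 1539 to 2859 at 18 h against 316 to 1022 in control mice, and that of Gm2a to Hexa overlaps between the groups.

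Glb1 (ENSMUSG00000045594, chr9:114230144-114303966 on GRCm39, plus strand) encodes lysosomal β-galactosidase, which removes terminal galactose from ganglioside GM1. Its normalized counts were 578, 567 and 706 in control mice, 468, 738 and 451 in 18h-αGal mice and 673, 556 and 753 in 72h-αGal mice. Replicates 1 and 3 at 18 h were the lowest libraries, while replicate 2 of the same group was above all control mice. The 18 h difference was -0.14 ± 0.21 (adjusted p = 0.759, fold change 0.667 to 1.23), the 72 h difference from control was 0.12 ± 0.21 (adjusted p = 0.973), and that between the times was 0.27 ± 0.20 (adjusted p = 0.476). Tmppe lies on the same strand and shares 4.2% of the exon bases of Glb1, with 178 to 675 reads per library, so part of the reads of either gene could have been assigned to the other or dropped.

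Galc (ENSMUSG00000021003, chr12:98167963-98225718 on GRCm39, minus strand) encodes galactosylceramidase, the enzyme that cleaves β-linked galactose from galactosylceramide and is lost in Krabbe disease. Its normalized counts were 194, 204 and 195 in control replicates 1 to 3, 107, 56.6 and 33.1 in 18h-αGal replicates 1 to 3 and 161, 134 and 159 in 72h-αGal replicates 1 to 3. All 3 mice at 18 h were below all others, and the 72h-αGal mice lay between the other groups without overlap with either. Group means were 198 ± 5.43 in control mice, 65.4 ± 37.5 at 18 h and 151 ± 15 at 72 h (SD, n = 3 each). The spread was widest at 18 h, where the reads behind the values were 169, 63 and 24, against 331, 215 and 82 in control mice and 139, 133 and 216 at 72 h.

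Galc fell by 1.56 on the log2 scale at 18 h (SE 0.37, adjusted p = 0.0217), to 0.34 times the control level with a 95% interval of 0.197 to 0.586. Replicates did not overlap for 23.8% of all genes in that contrast, 12.3% in the lower direction. Over the 20 other settings tried, the log2 difference ran from -2.12 to -1.26 and the adjusted p from 0.00194 to 0.1015. The adjusted p was above 0.05 under 4 of them: 0.0647 when only these groups were fitted, 0.0700 without control replicate 1, 0.0566 without control replicate 2 and 0.1015 without 18h-αGal replicate 2. Without control replicate 3, the library that stood apart, the difference was -1.57 (adjusted p = 0.0230).

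At 72 h the difference of Galc from control was -0.37 ± 0.36 (adjusted p = 0.935), with 3 of 3 mice below the controls and a 95% interval of 0.456 to 1.31 as a fold change. Replicates did not overlap for 12.7% of all genes in that contrast. Between 72 h and 18 h the difference was 1.19 ± 0.37, or 2.28-fold, and narrowly missed the threshold (adjusted p = 0.0524). Replicates did not overlap for 32.8% of all genes there. Under 8 of the 20 other settings this difference passed, among them DESeq2 (adjusted p = 0.0241), a fit without 18h-αGal replicate 1 (1.75, adjusted p = 0.0101) and a fit without control replicate 3 (adjusted p = 0.0429), and the adjusted p ranged from 0.0101 to 0.1635 over all 20.

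Markers of crypt cell types were read in the same libraries. The summed level of 6 genes of stem and crypt base cells was 2029 to 4481 CPM in control mice, 609 to 2099 CPM at 18 h and 2841 to 4804 CPM at 72 h. All 6 had a log2 fold change below 0 at 18 h, as had 52.4% of all genes, and 0 of 6 were called by edgeR and 1 by DESeq2, with 2 of 6 at an unadjusted p under 0.05 (beside 20.8% of all genes). Between 72 h and 18 h all 6 were above 0 (median 1.04, beside 0.046 over all genes). Of these 6, 0 were called by edgeR and 4 by DESeq2, which called 2449 genes in all there. There 4 had an unadjusted p under 0.05 (beside 24.3% of all genes). The summed level of 12 enterocyte markers was 8538 to 20521 CPM in control mice and 10616 to 16179 CPM at 18 h, inside the control range. At 18 h, 0 of 12 were called by edgeR or DESeq2 and 1 had an unadjusted p under 0.05 (beside 20.8% of all genes). At 72 h this sum was 5692 to 10566 CPM, which overlapped the control range. All 12 had a log2 fold change below 0 against control (median -0.74, beside 0.0022 over all genes). There 0 of 12 were called by edgeR or DESeq2 and 1 had an unadjusted p under 0.05 (beside 5.94% of all genes). The part of the cell type makeup in the lower level of Galc was not tested. Its exons overlap the antisense gene Gm47439 in 2.4% of their bases, and Gm47439 had at most 6 reads in any library.

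**Figure D3:**
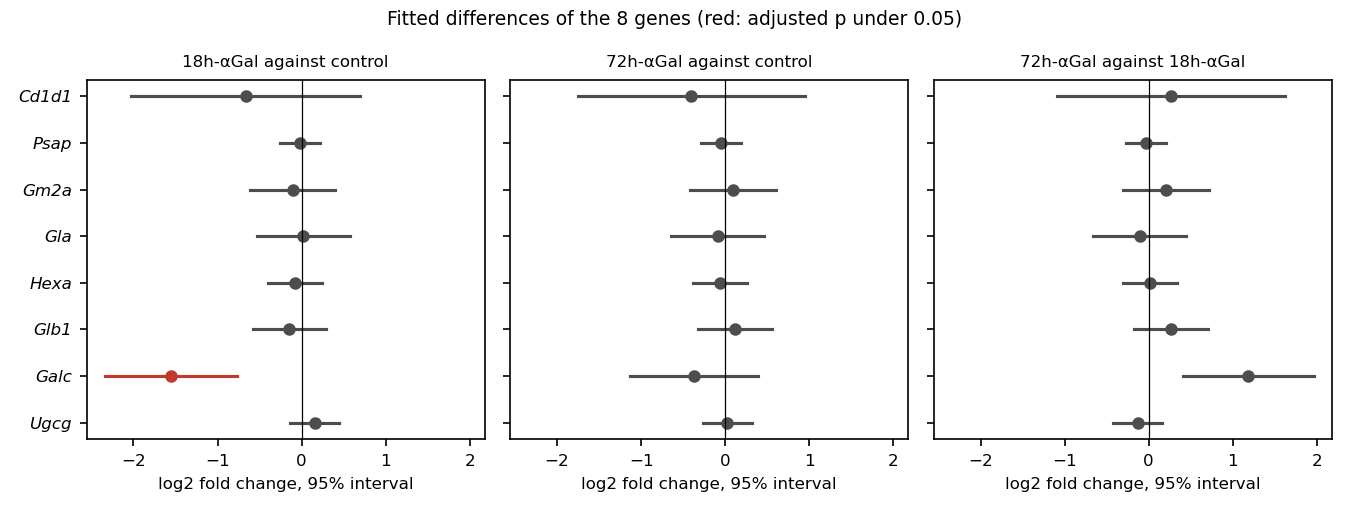
Log2 fold change (horizontal axes) with its 95% interval for the 8 genes in the 3 comparisons of 3 mice against 3, from the edgeR fit over all genes. The interval of Galc excludes 0 at 18 h and between the times, with an adjusted p under 0.05 at 18 h (red, -1.56), and the intervals of the other 7 genes include 0.

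Ugcg (ENSMUSG00000028381, chr4:59189035-59222845 on GRCm39, plus strand) encodes glucosylceramide synthase, the entry enzyme of most glycosphingolipid synthesis. Measured in normalized counts, Ugcg was at 1299, 1424 and 1690 in control mice, 1584, 1680 and 1613 in 18h-αGal mice and 1333, 1740 and 1361 in 72h-αGal mice. The 18 h libraries lay close together, all of them below control replicate 3 and above control replicates 1 and 2. The 18 h difference was 0.16 ± 0.14 (adjusted p = 0.579, fold change 0.909 to 1.36), the 72 h difference from control was 0.025 ± 0.14 (adjusted p = 0.999), and that between the times was -0.13 ± 0.14 (adjusted p = 0.623).

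When scaled for length as CPM per kilobase of annotated exon, the 8 genes spanned levels from among the highest to among the lowest of the genes tested. Psap was at 123 ± 5.8 (SD over the 9 libraries), above 99.1% of 18694 genes with a length, and Ugcg followed at 13.7 ± 1.22, above 85.8%. Hexa was at 8.01 ± 0.71, Glb1 at 6.87 ± 1.41, Gm2a at 5.95 ± 1.46 and Gla at 4.63 ± 1.05, above 76%, 72.8%, 69.6% and 64% of genes. Cd1d1 was at 0.511 ± 0.18 and Galc at 0.411 ± 0.186, above 20.4% and 17.2% of genes. Psap was above Ugcg, Ugcg above Hexa and Gla above Cd1d1 in 9 of 9 libraries without overlap of their ranges, while Hexa and Glb1, Glb1 and Gm2a, Gm2a and Gla, and Cd1d1 and Galc were neighbours whose ranges overlapped. The order of the group means was the same in all 3 groups. Cd1d1 was above Galc in 3 of 3 mice at 18 h, in 2 of 3 control mice and in 1 of 3 mice at 72 h. The level of Galc rests on 17561 annotated exon bases, by far the longest of the 8 genes (Ugcg, the next, has 5757), and it scales inversely with that length.

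**Figure D4:**
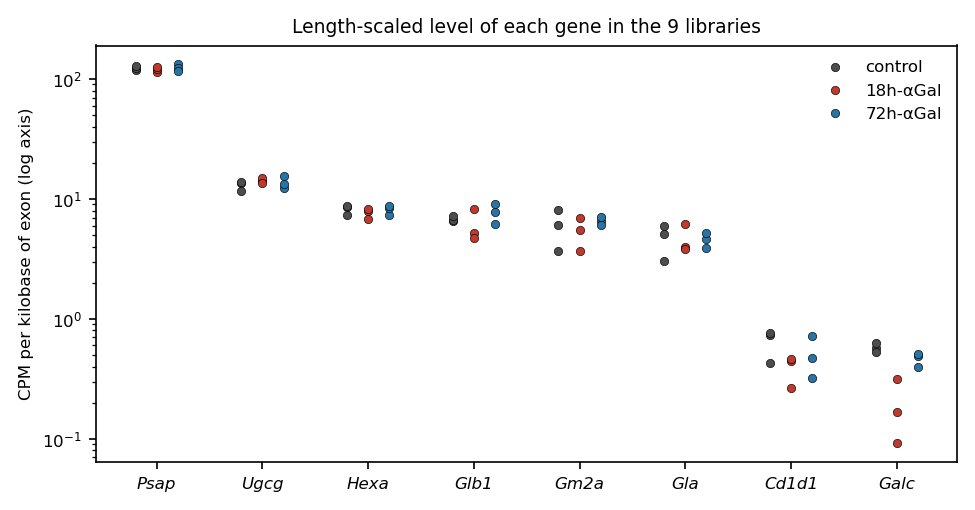
Level of each of the 8 genes in the 9 libraries in CPM per kilobase of exon on a log axis, 1 point per library, coloured by group. Psap lies at 114 to 132 in all libraries and Cd1d1 and Galc lie below 1, with the lowest point, 0.0914, that of Galc in an 18h-αGal library.

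Over the 9 libraries, the gene whose log2 CPM was most like that of Galc was Gm45250 (Pearson r = 0.963), followed by Uri1 and Gm9515 (both 0.956). For Cd1d1 these were Ncald (0.967), Prxl2c (0.932) and 2510009E07Rik (0.923). For Psap they were Slc28a3 (0.950), Krt19 (0.949) and Klf6 (0.948), and for Gm2a they were Cdt1 (0.978), Usf2 (0.967) and Pola1 (0.967). The nearest gene was Polr1f for Gla (0.952), Mtmr11 for Hexa (0.920), Cers5, a ceramide synthase, for Glb1 (0.923) and Stx3 for Ugcg (0.892). These are the highest values among about 11148 genes over only 9 points that share libraries, depth and treatment, and they are given as a description.

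Other genes of the pathway were taken as 4 lists, of which 68 of 72 genes could be tested. These lists and the marker lists were chosen with earlier results of these data known. Their counts are therefore given as a description, and an excess over all genes is no independent result. At 18 h, 9 of the 68 were called (13.2%, beside 5.96% of all genes), 7 higher and 2 lower. At 72 h against control 0 of 68 were called by edgeR or DESeq2, with 9 at an unadjusted p under 0.05 (beside 5.94% of all genes). Between 72 h and 18 h, 17 of the 68 were called (25%, beside 10.2% of all genes), 1 higher and 16 lower. The 18 h count was 17 without control replicate 3 and 5 without 18h-αGal replicate 2, and the count between the times was 10 without 72h-αGal replicate 1 or 3. In the same libraries, 2 of 5 tested tuft cell markers and 3 of 6 enteroendocrine markers were called higher at 18 h, beside 3.27% of all genes. Between 72 h and 18 h, 2 of 5 and 5 of 6 were called lower, beside 6.04% of all genes. At 72 h against control, 5 of 6 enteroendocrine markers were called lower, and these were the 5 genes called in that comparison (0.0264% of all genes). With 1 library left out, 0 to 20 genes were called there. The part of these cell types, and of the interferon-γ response, in the counts of pathway genes was not tested.

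Glycosphingolipid breakdown, the step closest to most of the 8 genes, had 0 of 17 called in any of the 3 comparisons by edgeR or DESeq2. Limma-voom called 1 at 18 h, 0 at 72 h against control and 2 between the times. At an unadjusted p under 0.05, 3 were higher and 2 lower at 18 h (beside 10.5% and 10.3% of all genes). By the same measure, 1 passed at 72 h against control (beside 5.94%) and 7 between the times (beside 24.3%). The median log2 fold change at 18 h was 0.078, beside -0.030 over all genes. The genes of this list included Asah1, which encodes acid ceramidase (0.24 ± 0.15, adjusted p = 0.410), Smpd1, which encodes acid sphingomyelinase (0.51 ± 0.24, adjusted p = 0.236), Arsa, the sulfatidase (0.10 ± 0.24, adjusted p = 0.869), and Ctsa, the protective protein of the complex with β-galactosidase and neuraminidase (-0.24 ± 0.11, adjusted p = 0.238).

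Glycosphingolipid synthesis and transfer had 3 of 21 tested genes called at 18 h, beside 5.96% of all genes. Kdsr, which reduces ketosphinganine early in ceramide synthesis, was at 858 to 1018 normalized counts in control mice and at 542 to 675 at 18 h, and fell by 0.66 on the log2 scale (SE 0.15, adjusted p = 0.0199). Cers6, a ceramide synthase, was at 10262 to 11450 and 7361 to 8029, and fell by 0.49 (SE 0.10, adjusted p = 0.00974). Gltp, which transfers glycolipids between membranes, was at 894 to 1090 and 1387 to 1726, and rose by 0.61 (SE 0.15, adjusted p = 0.0229). Between 72 h and 18 h, Cers6 rose by 0.40 (adjusted p = 0.0198) and Gltp fell by 0.64 (adjusted p = 0.0118). B4galt5, a lactosylceramide synthase, differed by 0.75 ± 0.33 at 18 h (adjusted p = 0.245), and A4galt, the synthase of globotriaosylceramide, the main substrate of the product of Gla, by 0.63 ± 0.50 (adjusted p = 0.532). The calls at 18 h were lost without 18h-αGal replicate 2 for Kdsr and Cers6. That of Kdsr was also lost without control replicate 2 or 18h-αGal replicate 1, and that of Gltp without control replicate 1, without 18h-αGal replicate 1 or 3, and when only these groups were fitted. The call of Cers6 between the times was lost under 4 of the 20 other settings, among them without 18h-αGal replicate 2 and without 72h-αGal replicate 1 or 3 (highest adjusted p = 0.0923), and that of Gltp without 72h-αGal replicate 3 (adjusted p = 0.0732).

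The folding, trafficking and loading partners of CD1d had 4 of 12 tested genes called higher at 18 h, and none lower, beside 3.27% and 2.69% of all genes. Calr, the chaperone calreticulin, was at 12332 to 15769 normalized counts in control mice and at 27205 to 28287 at 18 h, a rise of 0.99 ± 0.12 (adjusted p = 0.00031). Pdia3, the thiol oxidoreductase ERp57, rose by 0.93 ± 0.13 (adjusted p = 0.000854), and B2m rose by 1.2 ± 0.24 (adjusted p = 0.0159), from 11387 to 24297 in control mice to 35771 to 38525. Canx, the membrane chaperone calnexin, rose by 0.48 ± 0.13 (adjusted p = 0.0375), a call that was lost under 11 of the 20 other settings. The call of B2m was lost with no filter on low counts and without control replicate 1, 18h-αGal replicate 2 or 18h-αGal replicate 3 (highest adjusted p = 0.0758). These 4 proteins also serve the folding of classical MHC class I molecules.

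Not all partners of CD1d passed the edgeR test, and DESeq2 and limma-voom each called 5 of the 12 at 18 h. Cd74, the invariant chain, was at 1033 to 5261 normalized counts in control mice and at 15018 to 16704 at 18 h, without overlap, and its difference of 2.69 ± 0.70 missed the threshold (adjusted p = 0.0833). The highest of these control values was that of control replicate 3. Mttp, the lipid transfer protein that loads lipids onto nascent CD1d, was at 20573 to 47560 in control mice and at 27965 to 39544 at 18 h (0.045 ± 0.32, adjusted p = 0.962). The cathepsin genes Ctss and Ctsl differed by 0.41 ± 0.22 (adjusted p = 0.307) and -0.23 ± 0.28 (adjusted p = 0.706). Between 72 h and 18 h, 6 of the 12 genes were called lower, beside 6.04% of all genes. They were Calr (-1.27), B2m (-1.33), Pdia3 (-1.08), Canx (-0.59), Ctss (-0.74) and Ap3s1 (-0.56), a subunit of the adaptor that sorts CD1d to lysosomes. The calls of Ctss and Ap3s1 were lost under 10 and 11 of the 20 other settings.

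General lysosomal genes had 2 of 18 called at 18 h, both higher, beside 3.27% of all genes. Ctsz, a lysosomal carboxypeptidase, was at 1374 to 2052 normalized counts in control mice and at 2807 to 3290 at 18 h (0.93 ± 0.14, adjusted p = 0.00174). This call held under all 20 other settings. At an unadjusted p under 0.05, 11 of the 18 were higher, beside 10.5% of all genes, and the median log2 fold change of the list was 0.30. Between 72 h and 18 h, 9 of 18 were called lower and none higher, beside 6.04% and 4.18% of all genes. The 9 included Ctsz (-0.94), Atp6v1a, a subunit of the proton pump (-0.61), Ctsb (-0.59), Laptm4a (-0.58) and Atp6v1b2 (-0.52). Lamp1, a major membrane protein of lysosomes, differed by 0.15 ± 0.12 at 18 h (adjusted p = 0.526), and Tfeb by -0.15 ± 0.23 (adjusted p = 0.777). Lamp1 was among the genes called lower between 72 h and 18 h (-0.44), a call lost under 9 of the 20 other settings. That of Atp6ap1 (-0.39) was lost under 13, and those of Lamp2, Atp6v1a and Atp6v1b2 under 1 each. Several of these genes share exon bases with a gene on the opposite strand, among them Ctsz with Nelfcd (29.2%), Lamp1 with Grtp1 (49.2%) and Ctsb with Fdft1 (15.4%), and such reads are told apart only where the counting used strand.

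**Figure D5:**
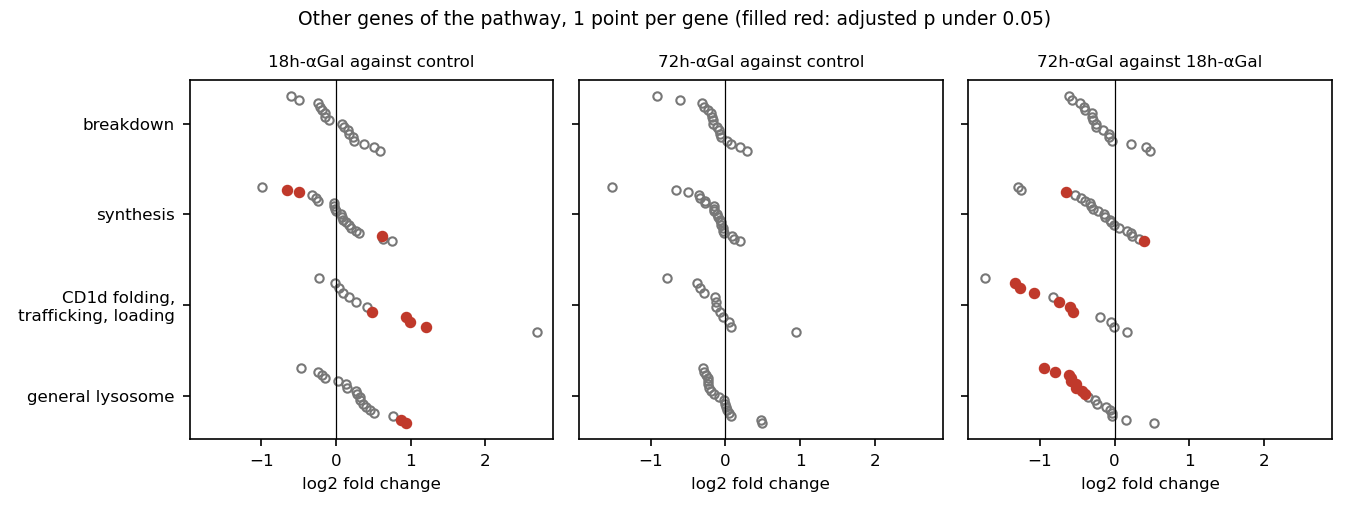
Log2 fold change (horizontal axes) of each tested gene of the 4 pathway lists in the 3 comparisons, 1 point per gene, with genes at an adjusted p under 0.05 filled in red. At 18 h the red points are 4 CD1d partners and 2 general lysosomal genes to the right of 0 and 1 synthesis gene to the right and 2 to the left, and the breakdown list has none in any panel.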

How the data were processed

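RNA of sorted IECs from 9 mice was sequenced from ribosomal RNA-depleted, strand-directional libraries as 100-base reads. The submitters' processing notes name HISAT2, featureCounts of Subread, DESeq2 1.42.0 and the build GRCm38 (mm10), whereas the study's methods name GRCm39. The strand setting and annotation release are not given in the sources used here. The authors deposited raw read counts per gene, and a normalized signal that equalled the deposited raw count divided by 1 factor per library, with no correction for length. The deposited tables give no positions. Identifiers of 28480 of 29288 genes matched GENCODE vM39 on GRCm39, the source of symbols, exon lengths and positions.

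Raw counts were tested in edgeR 4.0.16 (R 4.3.3) with TMM scaling, filterByExpr and the robust quasi-likelihood test, in 1 fit over the 9 libraries without a replicate term. A gene was called at an adjusted p under 0.05. The scripts were tested on simulated data. Total counts were 8887861 to 32722293 per library, so 3 counts correspond to 0.0917 to 0.338 CPM. Such limits cover counting error only. Alternatives used DESeq2 1.42.0, limma 3.58.1, other scalings and filters, and each library left out. The genes named are the 8, up to 6 called genes of each pathway list by smallest p, a fixed set of partner genes, the 3 genes most like each of the 8 among genes with a mean of at least 100 reads, and 7 interferon-γ reference genes. The 8 genes and all lists were chosen with earlier results of these data known. St3gal5 and some marker genes were not analysed here. Some genes and motifs covered by these rules and counted in the lists are not reported here. Replicates were separate mice, and no other batch was given.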

Additional observations from a re-analysis of the deposited data

How the results depend on the processing

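Each result was recomputed under 20 other settings. The 18 h call of Galc was lost under 4 of them (all named with their values above), and no called gene among the 8 turned its direction. Genes called at 18 h numbered 593 when only these groups were fitted and 432 to 1556 with 1 library left out (489 without control replicate 1, 681 without control replicate 2 and 432 without 18h-αGal replicate 2), against 1128. Of the 8 genes, 0 to 1 were then called (0 when only these groups were fitted), and pathway genes 5 to 17 (17 without control replicate 3, 5 without 18h-αGal replicate 2), with 14 by limma-voom. At 72 h against control, the count of 5 genes became 30 by DESeq2, 13 without the filter, 3 without robust estimation and 0 to 20 with 1 library left out (20 without control replicate 3, 8 without 18h-αGal replicate 3, 2 without 72h-αGal replicate 2, 1 without control replicate 2, and 0 without control replicate 1 or 72h-αGal replicate 1 or 3). Pathway genes called there were 0 to 1, and none of the 8 genes was called under any setting. Between 72 h and 18 h, leaving out 1 library gave 831 to 2593 genes (940 without 18h-αGal replicate 2, and 1108, 1194 and 831 without 72h-αGal replicates 1, 2 and 3) and 10 to 21 pathway genes (10 without 72h-αGal replicate 1 or 3). Of the 8 genes, 1 (Galc) was called there by DESeq2, limma-voom, limma-trend, upper-quartile scaling, no filter, a filter of 10 counts in 6 libraries, and without control replicate 3 or 18h-αGal replicate 1. The causes of these changes were not tested.

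Signs turned only for differences that no setting called. The 18 h value of Gla was -0.041 by limma-voom, -0.043 with upper-quartile scaling and -0.020 with library totals. That of Psap was 0.0014 at 72 h with library totals, and between the times 0.044 with upper-quartile scaling and 0.045 with library totals. With 1 library left out, 18 h values ranged from -0.071 to 0.065 for Psap, -0.31 to 0.12 for Gm2a, -0.24 to 0.22 for Gla and -0.19 to 0.027 for Hexa. At 72 h they ranged from -0.098 to 0.038 for Psap, -0.11 to 0.32 for Gm2a, -0.27 to 0.12 for Gla, -0.17 to 0.049 for Hexa and -0.10 to 0.13 for Ugcg. Between the times they ranged from -0.045 to 0.49 for Cd1d1, -0.081 to 0.041 for Psap, -0.22 to 0.15 for Gla and -0.029 to 0.088 for Hexa. Scalings moved the median of all genes by at most 0.078.

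Replicates with the same number were not paired by the labels. The correlation of their deviations was 0.024, 0.061 and 0.115 between control and 18h-αGal mice. It was -0.15 to -0.028 and -0.078 to -0.008 in the other pairs of groups. Each control replicate was most like the 18h-αGal replicate of the same number, whereas no best match had the same number in the other pairs of groups. The source of this match was not tested. With the replicate block, 781 genes were called at 18 h and 1 at 72 h against control, and Galc had a difference of -1.65 at 18 h (adjusted p = 0.0318). Cd1d1 had 10 to 62 reads per library, and the part of depth in the width of its interval was not tested.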
